A study of Homo sapiens with 32 samples.

Results

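Chromosome 9 carried 75641 of the 2009008 uracil-enriched regions found across all 15 libraries of the series. These were the regions whose chromosome was given as chr9, with no further selection, and they numbered 3464 to 8887 per library. U-DNA-Seq finds such regions by capturing sonicated DNA on ΔUNG, a FLAG-tagged uracil-DNA glycosylase that binds uracil without cutting it out, and sequencing the captured and the input DNA. The libraries came from HCT116, a colorectal carcinoma line deficient in mismatch repair (MMR), and from K562, a chronic myelogenous leukemia line. The 6 non-treated HCT116 libraries were wild type cells (WT), cells expressing UGI (NT_UGI) and UGI-expressing cells of a sub-line with an added chromosome 3 that restores MMR (NT_UGI_MMR). UGI is a protein inhibitor of uracil-DNA glycosylase, brought in by retroviral transduction together with EGFP, and the transduced cells were sorted as a population. The 8 drug-treated libraries were UGI-expressing cells with and without added MMR, given 20 µM 5-fluoro-2'-deoxyuridine (5FdUR_UGI, 5FdUR_UGI_MMR) or 100 nM raltitrexed (RTX_UGI, RTX_UGI_MMR) for 48 h. Each HCT116 condition had 2 replicates, and K562, non-treated and wild type, had 1 library. Every drug-treated library expressed UGI, as 4 of the 6 non-treated libraries did, and the WT libraries did not. The p-values below measure the spread between these libraries, and the read depth behind a region is unknown.

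Uracil enters DNA in place of thymine when the dUTP pool is large, or arises when cytosine loses its amino group, and uracil-DNA glycosylase removes it. 5FdUR and raltitrexed both block thymidylate synthase, the enzyme that makes dTMP, and so favour dUTP incorporation. Per the paper, 5FdUR is also built into DNA directly, and the method detects fluorouracil as well as uracil. Regions after 5FdUR may thus hold either base. Chromosome 9 has a gene-poor, A+T-rich short arm with the type I interferon cluster and the cell cycle inhibitor locus CDKN2A/CDKN2B at 9p21, a large block of satellite heterochromatin beside the centromere, and a gene-dense long arm ending in 9q34, where ABL1 lies. K562 is known for its BCR-ABL1 fusion and for lacking CDKN2A.

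The following sequences show a region shared by both cell lines and a region of K562 alone. They are the central 300 bases of the longest segment of chromosome 9 found in exactly the libraries named, read from the plus strand of GRCh38, and capitals mark every run of at least 4 A or 4 T (AAAA or TTTT, which are the same motif on the other strand). No annotated gene lay over either segment.
Non-treated HCT116 and K562 (chr9:11521751-11522050): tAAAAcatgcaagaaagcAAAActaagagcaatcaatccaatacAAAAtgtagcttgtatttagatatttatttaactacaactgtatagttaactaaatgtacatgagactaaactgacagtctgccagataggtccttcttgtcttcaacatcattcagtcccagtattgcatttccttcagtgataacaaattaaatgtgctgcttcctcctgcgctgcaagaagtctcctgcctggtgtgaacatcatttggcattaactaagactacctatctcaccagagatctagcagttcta
K562 only (chr9:63665401-63665700): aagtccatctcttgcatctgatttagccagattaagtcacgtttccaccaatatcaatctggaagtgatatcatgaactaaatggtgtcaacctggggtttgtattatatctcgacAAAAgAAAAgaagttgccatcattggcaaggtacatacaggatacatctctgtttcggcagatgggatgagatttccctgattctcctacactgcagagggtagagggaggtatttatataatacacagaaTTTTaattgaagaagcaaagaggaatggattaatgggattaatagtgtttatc
The segment shared by all 6 non-treated libraries and K562 was 7800 bases long and lay in the gene-poor part of 9p. The K562 segment of 9500 bases came from the pericentromeric q arm. It lies near bins described below, where unique mapping is limited and regions are uncertain, and what this does to the segment was not tested. G+C made up 37% of the shared sequence and 38% of the K562 sequence. Each held 3 runs of AAAA or TTTT, and 95.4% of all 405922 windows of 300 known bases of the chromosome held at least 1, with a median of 5. Over all such segments, those of non-treated HCT116 and K562 without drug-treated libraries totalled 962 kb with 31.7% G+C, and those of all drug-treated libraries alone totalled 348 kb with 48.7% G+C. No base of chromosome 9 was in a region in all 15 libraries.

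After drug treatment the balance of the uracil regions of chromosome 9 shifted toward the long arm. Regions covered 13.6%, 14.3% and 14.7% of the known bases of the p arm (lowest, median and highest of the 6 non-treated libraries) and 5.65%, 5.99% and 6.58% of the q arm. In the 8 drug-treated libraries they covered 10.1%, 11.9% and 13.6% of the p arm and 19.6%, 21.4% and 23.2% of the q arm. The 2 groups overlapped on neither arm. Dividing the q arm share by the p arm share gave 0.426 ± 0.0305 without drug (SD, n = 6) and 1.84 ± 0.298 with drug (SD, n = 8). The log2 of this quotient differed by 2.09 (p = 0.000333 by an exact permutation test of both sides, the smallest p that 8 against 6 libraries can give). The q arm is also the richer in G+C, with 42.7% against 38.9% on the p arm.

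**Figure D1:**
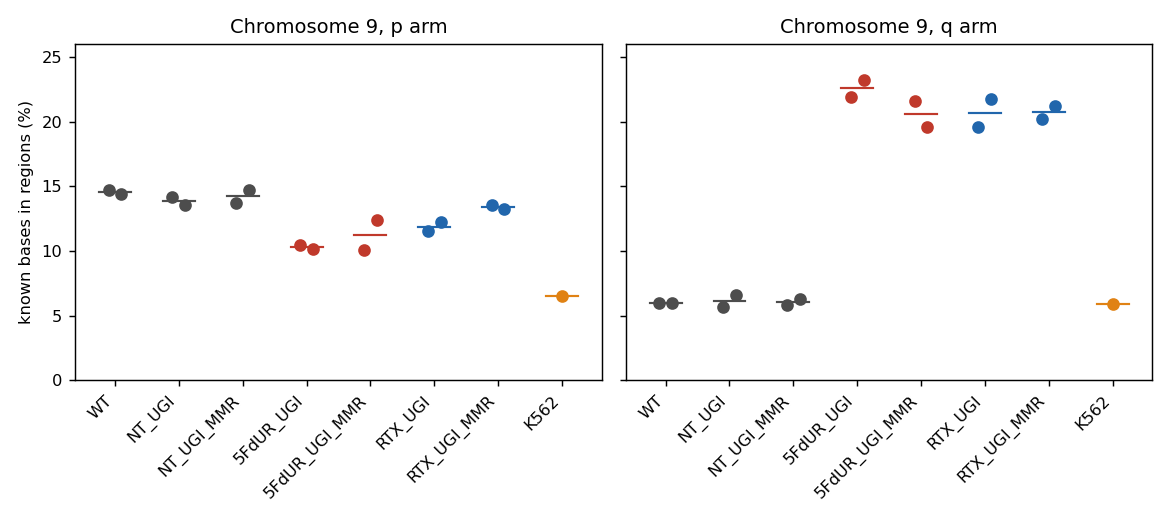
Percent of known bases inside uracil regions on the p arm (left) and the q arm (right) of chromosome 9, 1 point per library, with the mean of each condition as a line. The 8 drug-treated libraries sit above 19% on the q arm and all non-treated libraries and K562 below 7%, while on the p arm K562 lies at 6.51%, below every HCT116 library.

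As a whole, the chromosome was covered to 9.10% ± 0.257 without drug (SD, n = 6) and to 17.6% ± 0.653 with drug (SD, n = 8). The total length called was set by the authors for each library, so the share was also divided by that of the whole genome. This ratio was 0.819 ± 0.0139 in non-treated libraries and 0.994 ± 0.0394 after drug, higher by 0.28 on a log2 scale (p = 0.000333, exact permutation test, two-sided), and chromosome 9 ranked 15 of 23 from the lowest in this shift. Non-treated libraries thus covered chromosome 9 less than the genome as a whole, and drug-treated libraries covered both about equally. G+C content of the regions rose from 33.9% ± 0.202 to 45.5% ± 1.42, with no overlap between the groups (two-sided exact permutation test, p = 0.000333). N50, the length at which regions of that length or longer hold 50% of the covered bases, was 4700 to 5100 bases in non-treated libraries and 5500 to 31400 bases in drug-treated libraries (two-sided exact permutation test on the log2 scale, p = 0.00167). The longest region of chromosome 9 in any non-treated library spanned 33400 bases, and that of RTX_UGI replicate 2 spanned 288400 bases.

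In bins of 1 Mb, 48 of 123 bins of chromosome 9 rose after drug treatment and 30 fell (exact permutation test per bin, Benjamini-Hochberg adjusted p under 0.05). Across all 2921 bins of chromosomes 1 to 22 and X, 41.6% rose and 31.3% fell, so the share of rising bins on chromosome 9 was close to that of the genome and the share of falling bins lower. With each share divided by the library's whole share, 45 rose and 42 fell (36.6% and 34.1%). Genome-wide shares for that setting are not given here, so the lower share of falling bins was shown for unscaled shares only. By arm, the test called 10 of 46 bins higher and 18 lower on the p arm, and 38 of 77 higher and 12 lower on the q arm. When only regions with a log2 value of at least 0.35 were counted, 30 bins rose and 52 fell, so the balance was turned. For this setting, too, no genome-wide shares are given. Bins that rose had a median G+C of 43.7% and a median of 9 protein-coding genes, and bins that fell had 37.2% and 1 gene.

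The longest rising run took in 18 bins from 120000001 to 138000000, reaching through 9q33 and 9q34, with 298 protein-coding genes inside and DENND1A, RALGPS1 and TTLL11 as the longest that it touched. Non-treated libraries covered 1.09%, 1.33% and 1.46% of it, and drug-treated libraries 15.3%, 41.0% and 55.9% (lowest, median, highest). The next longest rising runs were 91000001 to 99000000 with AOPEP, GABBR2 and ROR2, where shares went from 1.92-3.17% to 21.7-40.8%, and 33000001 to 39000000 with UNC13B and ZCCHC7, where they went from 1.68-3.04% to 17.3-58.4%. In all 3 runs the drug-treated libraries lay above every non-treated library.

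The 3 longest runs that fell lay on 9p. From 7000001 to 14000000, a run of 7 bins that holds the receptor phosphatase gene PTPRD, non-treated libraries covered 24.9%, 27.5% and 28.0%, and drug-treated libraries 0%, 0.149% and 5.58%. From 23000001 to 27000000, with the RNA-binding protein gene ELAVL2, the range went from 22.7-28.5% to 0-3.12%. From 28000001 to 32000000, which holds no complete protein-coding gene and part of LINGO2, it went from 37.1-41.2% to 0.0025-5.06%. Among drug-treated libraries, 5FdUR_UGI_MMR replicate 2 had the highest share in each of these 3 runs.

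**Figure D2:**
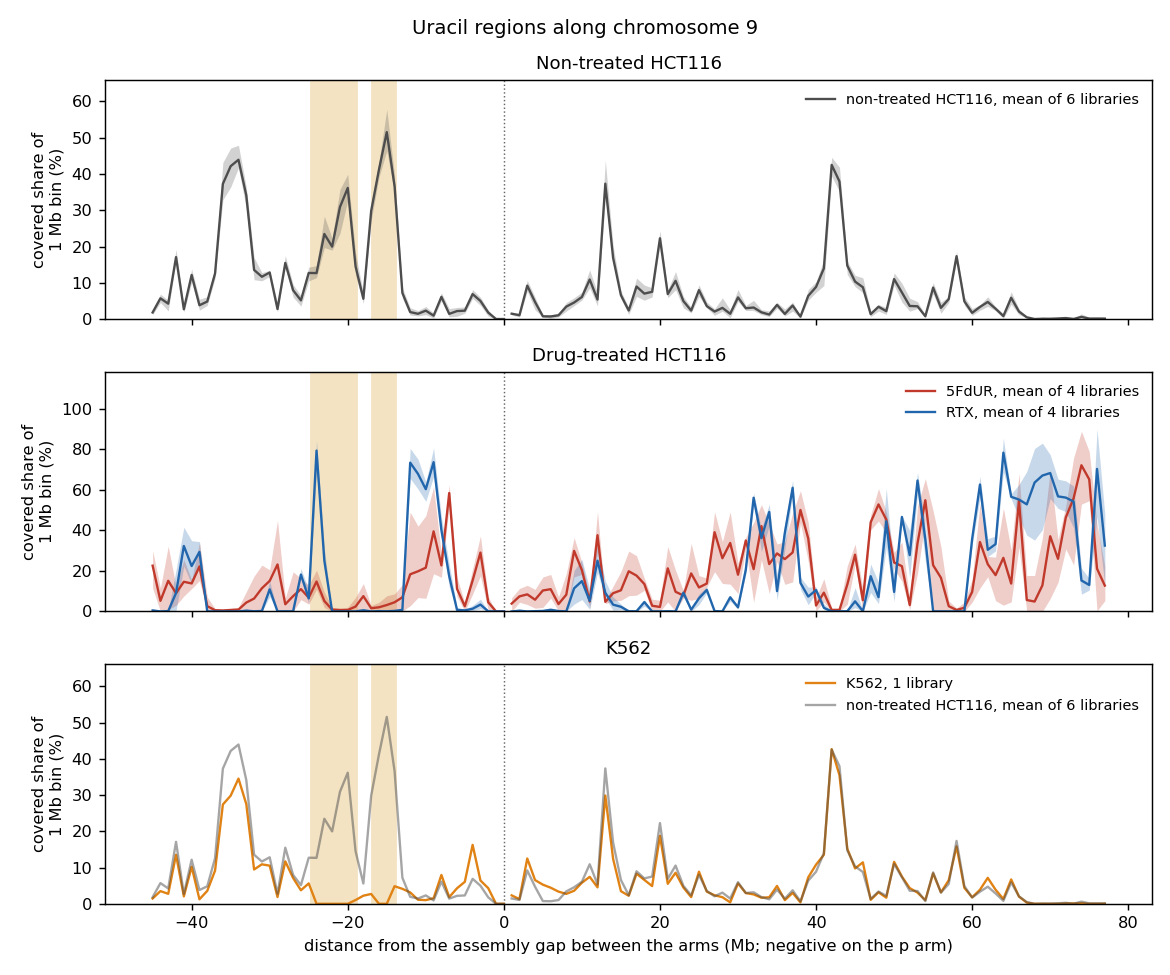
Share of each 1 Mb bin inside uracil regions, against the distance from the 15 Mb assembly gap between the arms of chromosome 9, for non-treated HCT116 (top, mean and range of 6), 5FdUR and RTX (middle, mean and range of 4 each) and K562 (bottom, with the non-treated mean behind it). Shading marks the 2 stretches of 9p that hold no K562 region. The highest non-treated bin, at 51.5%, lies inside a K562-free stretch and has 1.60% after drug. K562 follows the non-treated line on the q arm and departs from it most in the shaded part of the p arm.

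K562 had fewer of its regions on chromosome 9 than non-treated HCT116. The K562 library covered 6.10% of chromosome 9, against 8.76% to 9.43% in the 6 non-treated HCT116 libraries, although both had about the same share of the whole genome (10.99% in K562, 10.9% to 11.3% in HCT116). Relative to the genome, chromosome 9 stood at 0.556 in K562 and at 0.819 in the HCT116 mean, a log2 difference of -0.56, the lowest of 23 chromosomes. Chromosome 14 came next among the lower ones with -0.34, and in the other direction chromosome X differed nearly as much, with 0.51. The difference lay on the short arm, with 6.51% of the p arm covered in K562 against 13.6% to 14.7% in HCT116, and 5.86% of the q arm against 5.65% to 6.58%. With 1 K562 library the contrast has no test and no replicate check, and cell line, culture and library preparation cannot be told apart.

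K562 lay below all 6 non-treated HCT116 libraries in 39 of 123 bins of chromosome 9 (31.7%) and above all 6 in 19 (15.4%). Over the whole genome the shares were 18.2% below and 20.0% above. On the p arm 27 of 46 bins were below, and on the q arm 12 of 77. When only regions with a log2 value of at least 0.35 were counted, 14 bins were below and 25 above, so the excess of bins below was turned. Genome-wide shares at that log2 value are not given here. The Jaccard index, the bases shared by a pair of libraries over the bases in either, was 0.238 ± 0.0131 (SD over 6 pairs) between K562 and non-treated HCT116 on chromosome 9, and 0.364 ± 0.025 (SD over 15 pairs) among the non-treated HCT116 libraries. The ratio of these means was 0.654, the lowest of 23 chromosomes, followed by 0.86 on chromosome 14. By the index itself, chromosome X was lower (0.206), where the non-treated HCT116 libraries also overlapped little (0.185). Across bins, K562 and the non-treated mean correlated with r = 0.98 over the 77 bins of the q arm and r = 0.44 over the 46 bins of the p arm (across bins of the same libraries, which are not independent). Without the 12 bins that touch the K562-free span of 9p described below, r was 0.97 over the other 111 bins of the chromosome. With drug-treated HCT116 the index of K562 on chromosome 9 was 0.0154 ± 0.00699 (SD over 8 pairs).

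Much of the short arm difference came from 2 stretches without a single K562 region. The longest lay at 9p21, from 20751601 to 26640800, and held 5.89 Mb. Non-treated HCT116 libraries covered 21.2%, 23.01% and 25.9% of it (lowest, median, highest). The other, chosen after its values were seen, ran from 28553301 to 31622300 in 9p21 and held 3.07 Mb, of which the HCT116 libraries covered 41.5%, 43.9% and 46.0%. All 6 HCT116 libraries thus had regions in both stretches, and K562 had none.

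No other stretch of this kind came near in the genome. Among all 476 K562-free stretches of at least 500 kb on chromosomes 1 to 22 and X, they ranked 1 and 2 by the bases that non-treated HCT116 covered in them, with 1.39 Mb and 1.35 Mb on average, and the stretch ranked 3, on chromosome 14, held 0.0128 Mb. In bins of 1 Mb, 7 of the genome had more than 10% covered in every non-treated HCT116 library and none in K562. All 7 lay inside these 2 stretches, so they are the same bases and no separate support. Between the stretches, from 26640801 to 28553300, K562 had 52 regions with 59.7 kb, or 3.12% of the sequence, against 9.75% to 13.51% in HCT116. A region is called from the ratio of pull-down to input, and the input reads were not used here. Absence of DNA and absence of enrichment thus cannot be told apart in K562 from these regions. CDKN2A, which K562 is known to lack, lies inside the longest stretch, and how far the missing DNA reaches was not tested.

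**Figure D3:**
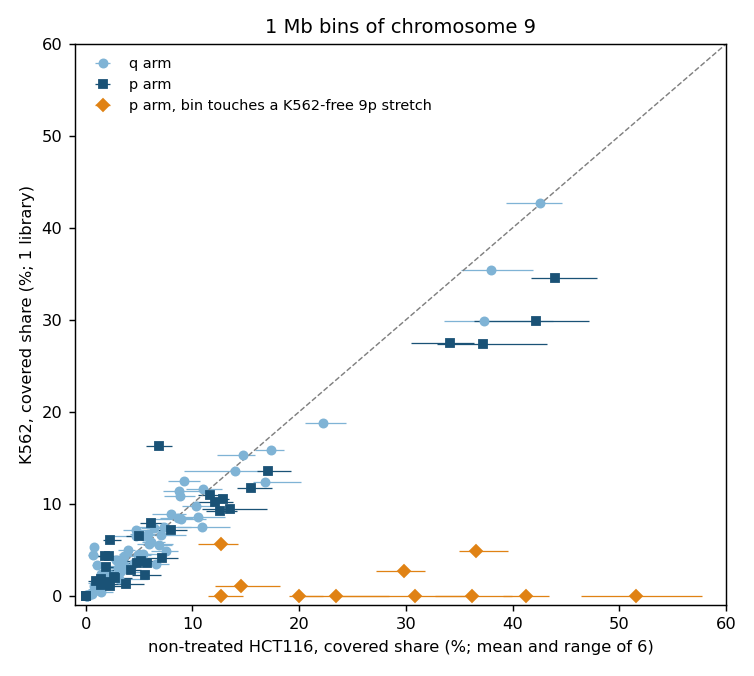
Covered share of the 123 bins of 1 Mb of chromosome 9 in K562 (vertical) against non-treated HCT116 (horizontal, mean with the range of 6 libraries), with the line of equal shares dashed. The bins of the q arm follow the line, and 27 of the 46 bins of the p arm lie below the HCT116 range. The 12 bins within or touching the span of both K562-free stretches of 9p lie between 0% and 5.62% in K562.

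The longest stretch held 25 complete protein-coding genes and part of FOCAD. They included the interferon genes IFNB1, IFNW1, IFNE and 13 IFNA genes, MTAP, which salvages methylthioadenosine, the cell cycle inhibitor genes CDKN2A and CDKN2B, and ELAVL2. The other stretch touched LINGO2, a gene for a neuronal membrane protein. LINGO2 was covered to 28.6%, 32.6% and 34.4% in non-treated HCT116 (lowest, median, highest) and to 2.23% in K562. DMRTA1, a gene for a transcription factor, had 33.6%, 55.7% and 67.7% against 0%. For CDKN2A, known to be lacking in K562, the values were 11.2%, 18.5% and 26.9% against 0%. In each of these 3 genes K562 lay below every non-treated library. For DMRTA1 and CDKN2A, inside the longest stretch, the 0% in K562 is set by how that stretch was chosen. LINGO2 lies partly in the other stretch, so its low share in K562 is set in part the same way.

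The short arm outside both stretches and the sequence between them also differed, in either direction. Before it, from the telomere to 20751600, K562 covered 10.97% and HCT116 13.7% to 15%. PTPRD, in this part, had 24.7% in K562 and 30.1% to 36.6% in HCT116. After it, from 31622301 to the assembly gap, K562 covered 4.52% and HCT116 3.21% to 4.20%. With the span from 20751601 to 31622300 left out, chromosome 9 in K562 stood at 0.605 of the genome share against 0.638 to 0.692 in HCT116, the p arm at 8.39% against 9.61% to 10.5%, and the Jaccard index at 0.296 ± 0.0196 (SD over 6 pairs) against 0.339 ± 0.0244 (SD over 15 pairs) among non-treated HCT116. The K562 values were thus nearer to those of HCT116 without the span and still lower.

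The longest runs of bins in which K562 exceeded non-treated HCT116 lay beside the centromere. The largest difference was in the bin from 41000001 to 42000000, which holds CNTNAP3B, with 16.2% in K562 against 5.68% to 8.10%. The bins from 65000001 to 66000000 and from 66000001 to 67000000 had 5.28% and 4.44% against at most 1.16% and 1.17%. These bins hold recently duplicated sequence with genes such as ZNG1E, FOXD4L5 and ZNF658, where unique mapping is limited, and regions there are uncertain. The authors excluded regions of low mappability by a list made for each cell line, and its part in these bins was not tested. The next run, from 122000001 to 124000000 with DENND1A, TTLL11 and RABGAP1, lay in 9q33, with 5.52% in K562 against 3.39% to 4.23%.

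The longest 9q stretch without a K562 region did not set the lines apart. It ran from 127158101 to 132348400 in 9q34 and held 96 protein-coding genes, ABL1 among them, but non-treated HCT116 covered only 0.0116% to 0.274% of it. ABL1, a tyrosine kinase gene, had no region in K562 and at most 0.687% in non-treated HCT116. In drug-treated HCT116 the stretch was covered to 6.21% to 72.6%.

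The covered shares after 5FdUR and after RTX differed along the chromosome. All 4 5FdUR libraries lay above all 4 RTX libraries in 37 of 123 bins of chromosome 9, and below them in 25. Genome-wide these shares were 23.0% and 17.5%, against 30.1% and 20.3% on chromosome 9. Over the chromosome, q over p was 2.03 ± 0.306 (SD, n = 4) for 5FdUR and 1.64 ± 0.126 (SD, n = 4) for RTX (log2 difference 0.29, two-sided exact permutation test, p = 0.114, where 4 against 4 libraries can give no less than 0.0286). Without 5FdUR_UGI_MMR replicate 2 the log2 difference was 0.41 with p = 0.0286 (exact permutation test), so that 1 library decides on which side of the threshold this comparison falls. It also came to p = 0.0286 in the exact permutation test when only regions of at least 5 kb or with a log2 value of at least 0.35 were counted. The chromosome 9 share over the genome share was 1.01 ± 0.0517 for 5FdUR and 0.981 ± 0.0211 for RTX (log2 difference 0.04, two-sided exact permutation test, p = 0.457).

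The bin with the largest excess of RTX lay inside the K562-free stretch. From 21000001 to 22000000, with the interferon genes, MTAP and CDKN2A, RTX_UGI had 80.6% and 84.4%, RTX_UGI_MMR 83% and 69.2%, 5FdUR_UGI 20.4% and 14.2%, and 5FdUR_UGI_MMR 10.9% and 13.5%. Non-treated libraries had 11.4%, 12.6% and 14.7% (lowest, median, highest) and K562 0%. The bin passed the test of drug-treated against non-treated libraries (adjusted p = 0.0385, exact permutation test), with RTX far above all other libraries and 5FdUR overlapping the non-treated range. MTAP was covered to 95.9%, 100%, 90.5% and 85.5% in the RTX libraries, to 6.07%, 0%, 3.63% and 0% in the 5FdUR libraries, and to at most 9.70% in non-treated HCT116. CDKN2A had 72.05%, 94.5%, 73.1% and 52.6% after RTX and 24.1%, 21.2%, 0% and 0% after 5FdUR. Neither gene passed the test of all drug-treated against non-treated libraries (adjusted p = 0.119 and 0.2, exact permutation test). This bin has 38.2% G+C, less than 43.7%, the median of the bins that rose. The interferon genes are about 1 kb long, and single libraries often covered them wholly or not at all.

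In 9q34 each drug had bins in which its libraries lay above those of the other. From 128000001 to 129000000, with SPTAN1 and DNM1, RTX_UGI had 75.2% and 80.3%, RTX_UGI_MMR 35.2% and 63.4%, 5FdUR_UGI 17.7% and 1.76%, and 5FdUR_UGI_MMR 0% in both libraries. From 134000001 to 135000000, with COL5A1 and RXRA, the order was turned, with 52.9%, 88.8%, 84.4% and 62.1% in the 5FdUR libraries and 16.8%, 21.3%, 8.47% and 14.6% in the RTX libraries. RXRA, the gene of a retinoid receptor, had 50.9%, 99.3%, 100% and 69.0% after 5FdUR and 4.05%, 4.62%, 0.407% and 0% after RTX. Collagen gene COL5A1 had 28.9%, 99.6%, 96.9% and 88.8% after 5FdUR and 0% in all RTX libraries. NUP214, a nuclear pore gene, had the opposite order, with 90.8%, 89.4%, 94.0% and 98.6% after RTX and 29.8%, 1.83%, 5.68% and 0.0917% after 5FdUR. FPGS, whose product adds glutamates to antifolates such as raltitrexed, had 100%, 100%, 46.1% and 28.0% after RTX and 78.0%, 0%, 0% and 0% after 5FdUR, and the groups overlapped.

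In 6 bins of chromosome 9 all 5FdUR libraries lay above and all RTX libraries below every non-treated library (4.88%, against 2.33% of bins genome-wide). One bin lay on the p arm and 5 on the q arm. From 87000001 to 88000000, with DAPK1, a death-associated kinase gene, 5FdUR libraries had 19.6% to 49.1%, non-treated libraries 1.04% to 2.81% and RTX libraries 0% to 0.62%. From 76000001 to 77000000, with the protease gene PCSK5, the ranges were 7.71% to 29.7%, 1.27% to 3.11% and 0% to 0.16%. The reverse order, RTX above and 5FdUR below, occurred in no bin of chromosome 9 and in 0.377% of bins genome-wide. That the 2 drugs move away from non-treated cells in opposite directions in these bins was not tested.

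The 5FdUR profiles with and without added MMR were less alike than the RTX profiles. Across the 123 bins, the means of RTX_UGI and RTX_UGI_MMR correlated with r = 0.95 and those of 5FdUR_UGI and 5FdUR_UGI_MMR with r = 0.68. Between drugs, r was 0.61 in cells without added MMR and 0.10 in cells with it. These are correlations across bins of 2 libraries each, given as a description, and the difference was not tested, since 2 against 2 libraries can give no p under 0.333. Listed genes gave examples of libraries that differ in this way. ABCA1, a cholesterol transporter gene, had 5.91% and 21.6% in 5FdUR_UGI, 70.5% and 66.7% in 5FdUR_UGI_MMR and 0% in all RTX libraries. PAPPA, which encodes a protease of insulin-like growth factor binding proteins, had 0% and 13.9%, then 57.7% and 65.8%, and again 0% in all RTX libraries.

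Of the 777 protein-coding genes of chromosome 9, 267 rose and 56 fell after drug treatment (34.4% and 7.21%, exact permutation test per gene, adjusted p under 0.05), against 33.5% and 8.32% of all 19970 genes tested, so the chromosome did not stand apart. The median gene had no region in non-treated libraries, and the median difference was 27.1 percentage points on chromosome 9 and 26.7 over all genes. Without any 1 of the 6 non-treated libraries, 163 to 170 genes rose, without WT altogether 52, and with only regions of a log2 value of at least 0.35, 16 rose and 61 fell, so the balance of the calls was turned. The genes named below come from lists by map position, given from the short arm telomere on.

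On 9p24, 3 of 7 listed genes rose and 2 fell, with a median difference of 1.92 percentage points. JAK2, a cytokine receptor kinase gene, was covered to 24.5%, 28.5% and 31.3% in non-treated libraries (lowest, median, highest) and to 0%, 3.31% and 4.95% after drug (adjusted p = 0.00446, exact permutation test). Its neighbour CD274, which encodes the immune checkpoint ligand PD-L1, went the other way, from 0-14.9% to 21.9-100% (adjusted p = 0.00787, exact permutation test). PDCD1LG2, the gene of the related ligand PD-L2, also rose, from 0-10.2% to 17.5-91.1%. PTPRD fell from 30.1-36.6% to 0-1.17%. In all 4 genes the groups did not overlap.

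In the list of 9p21 and the band before it, 1 of 22 genes rose and 6 fell, and 15 passed in neither direction (median difference 0.00364 percentage points). KLHL9, which encodes a ubiquitin ligase adaptor, was the gene that rose, with 0% to 51.2% in non-treated and 23.3% to 100% in drug-treated libraries, which overlapped. Those that fell were SLC24A2, MLLT3, FOCAD, DMRTA1, C9orf72 and LINGO2. MLLT3, a partner gene of KMT2A fusions, had 12.9% to 18.2% before and 1.28% to 11.4% after drug, and LINGO2 had 28.6% to 34.4% and 0% to 3.28%. K562 lay below all non-treated libraries in 9 of the 22 genes against 3.60% of all genes tested. Among the 9, FOCAD, MTAP, CDKN2A, DMRTA1, ELAVL2 and LINGO2 lie in or touch the stretches chosen for holding no K562 region. The count is thus no separate support. BNC2 (3.71% against at least 3.77%) and ADAMTSL1 (7.28% against at least 7.37%) lay only just below. A gene at 0% in any non-treated library cannot be counted, and the median gene tested is at 0%, so the 2 shares are not alike.

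On 9p13, only PAX5 rose among 5 genes. PAX5, a B cell transcription factor gene, had at most 1.44% in non-treated libraries and 66.3% to 99.3% in drug-treated libraries (adjusted p = 0.00446, exact permutation test). The DNA repair genes of this band did not pass, with FANCG listed at 0 in all non-treated libraries and covered in 2 drug-treated libraries.

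From 9q13 to 9q31, 3 of 14 genes rose (ROR2, PTCH1 and XPA) and 2 fell (GRIN3A and SMC2). PTCH1, the Hedgehog receptor gene, was at 0% in all non-treated libraries and at 1.08% to 73.7% after drug (adjusted p = 0.0168, exact permutation test). XPA, a nucleotide excision repair gene, had 92.7%, 95.5%, 69.5% and 65.2% after RTX and 29.9%, 0%, 0.446% and 0.892% after 5FdUR. SMC2, a condensin subunit gene, fell from 7.21-50.04% to 0-2.97%. ROR2, the gene of a Wnt receptor kinase, had 20.9% to 44.6% after 5FdUR and 6.64% to 9.98% after RTX. From 9q32 to 9q33, 1 of 6 genes rose, DENND1A, and 1 fell, BRINP1.

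On 9q34, 13 of 20 genes rose and none fell, with a median difference of 45.04 percentage points, against 27.1 over the genes of the chromosome. AK8, an adenylate kinase gene, had 0% to 0.261% in non-treated and 41.6% to 78.9% in drug-treated libraries (adjusted p = 0.00446, exact permutation test). TSC1, a regulator of mTOR signalling, was at 0% in all non-treated libraries and at 19.2% to 96.9% after drug (adjusted p = 0.00899, exact permutation test). ABL1 rose from at most 0.687% to 4.91-54.7%. NOTCH1, the gene of a transmembrane receptor, rose as well, although 5FdUR_UGI_MMR replicate 2 was at 0%, as were all non-treated libraries. Of the 20 genes, 4 had all 5FdUR above all RTX libraries (VAV2, RXRA, COL5A1 and CACNA1B). Another 6 had the reverse (ENG, ABL1, NUP214, TSC1 and TRAF2 among them). The same counts were 61 and 180 of the 777 genes of chromosome 9, and 1569 and 4674 of all 19970 genes tested.

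The shares of the bins followed G+C content, with opposite sign in non-treated and drug-treated libraries. Across the 123 bins of chromosome 9, r with G+C was -0.64 for the non-treated mean, 0.65 for 5FdUR, 0.65 for RTX and -0.50 for K562. Over all 2921 bins the values were -0.73, 0.57, 0.63 and -0.73. The 12 bins that touch the span of both K562-free stretches were then left out. Without them, r on chromosome 9 was -0.62 for K562 and -0.60 for the non-treated mean. Bins of one chromosome share libraries, depth and base composition, so these are descriptions and carry no p.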

How the data were processed

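U-DNA-Seq was run on 15 enriched samples with 15 inputs and mock pull-downs, 32 samples in all, and the 15 enriched samples are analysed here. Per the labels and the study's methods, the authors aligned reads with BWA 0.7.17-r1194 to GRCh38.d1.vd1, used SAMtools, Picard and deepTools 3.2.1, kept uniquely mapped reads, removed regions on a list made for each cell line, took the log2 of enriched over input coverage per 100 bp bin and joined bins over a threshold tuned per library. The deposited files give the position of each region and a log2 value. The lowest log2 value on chromosome 9 was 0.13 to 0.33 across libraries, so the libraries were called at different thresholds. The depth behind a region is unknown from these files, and no counting interval is given.

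Covered share is the percent of known GRCh38 bases inside regions, computed with Python 3.11.15 and NumPy 2.4.6. The arms were divided at the longest run of unknown bases (45518559 to 60518558). Bins of 1 Mb with at least 50% known bases and GENCODE 44 protein-coding genes of chromosomes 1 to 22 and X were tested by exact permutation of libraries with Benjamini-Hochberg adjustment over all of them. Replicates are independent biological replicates per the study's methods. Bins and runs were named by rank (longest runs, largest K562 differences), genes from lists by map position. The chromosome, the gene lists and the tests were chosen with earlier results of these data known. The tests were tested on simulated data. The 7 files of merged replicates served only as an alternative. Sequences come from the hg38 reference. Alternatives were a minimum region length, a common log2 value, other bin sizes, scaled shares, all annotated genes, UGI-expressing cells only, the replicate block and leaving out each library. Leaving out the span of both K562-free stretches was added after seeing the data. One listed gene of 9q34 counts in its list and is not reported here.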

Additional observations from a re-analysis of the deposited data

Results flagged for a closer look

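In 44 groups of 4 to 8 libraries examined for a library that stands apart (7 measures of the whole chromosome and 4 stretches, each in 4 groups), 3 were found, where chance alone gives about 1 in 20. Among non-treated libraries, NT_UGI replicate 2 had a log2 ratio of q over p arm of -1.04, with the others between -1.32 and -1.22. In the falling run from 7000001 to 14000000, 5FdUR_UGI_MMR replicate 2 kept 5.58%, with the other 7 drug-treated libraries between 0% and 1.99%. In the same run RTX_UGI_MMR replicate 1 had 0.227%, with the other RTX libraries between 0% and 0.00714%.

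All 5FdUR libraries lay above and all RTX libraries below every non-treated library in 6 bins of chromosome 9 (4.88%, against 2.33% of bins genome-wide). Non-treated means in these bins were low, at 2.06% to 6.87%. That the drugs differ from non-treated cells in opposite directions there was not tested.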

How the results depend on the processing

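No difference between groups changed sign under any alternative run, but the balance of calls did. Leaving out each library in turn left 139 of the values on their side of the threshold or within 1.5 times, while 6 were counted as moved and 1 as stronger. The other alternatives left 57, while 19 were counted as moved, 2 as stronger and 1 as weaker. The log2 difference of q over p arm between 5FdUR and RTX ranged from 0.23 to 0.41 without 1 library and passed only without 5FdUR_UGI_MMR replicate 2. It was 0.55 with regions of at least 5 kb and 0.86 with a log2 value of at least 0.35, and passed in both. With that log2 value, 24.4% of bins rose, 42.3% fell, K562 was below in 11.4% and above in 20.3%, 2.06% of genes rose and 7.85% fell, and the Jaccard index of K562 was 0.223. With regions of at least 5 kb, 8.75% of genes rose, 2.44% fell, and the index was 0.176. In 100 kb bins K562 was below in 19.4%. Genes that rose were 20.98% to 42.3% without 1 library, 6.69% without WT and 13.9% over all annotated genes. Merged files leave 4 against 3 samples, where the smallest p is 0.0286. There 0 bins and 0 genes passed in either direction after adjustment, K562 was above in 39.8% of bins and below in 30.1%, the index was 0.266, and the N50 difference of 1.99 had p = 0.0571 (exact permutation test). Without the longest K562-free stretch the index was 0.262, and without the span of both 0.296. No genome-wide shares are given beside these counts, and the causes were not tested.

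Replicate numbers were shared between conditions, and same-numbered libraries had no deviation common to all conditions (21 pairs, r from -0.58 to 0.48, 4 over 0.1). Within a drug they deviated together, with r = 0.37 for 5FdUR_UGI and 5FdUR_UGI_MMR and 0.48 for RTX_UGI and RTX_UGI_MMR. Between the drugs they deviated in opposite directions, with r from -0.58 to -0.37. With the replicate block, 38.2% of bins rose and 24.4% fell, 27.7% of genes rose and 6.82% fell, and the log2 difference of q over p was 2.09. No difference of the whole chromosome changed its side of the threshold, and 215 genes rose in place of 267.

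Covered shares rest on thresholds set per library, K562 has 1 library, and genes shorter than a region are often covered wholly or not at all. Depth per region and copy number were not measured here.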
